A study of Mus musculus with 8 samples.

Results

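The genes described here are 9 homeostatic microglia genes that encode surface, secreted or otherwise non-receptor products: Tmem119, Selplg, Slco2b1, Ecscr, Golm1, Olfml3, Sparc, Cst3 and Crybb1. They are 9 of the 55573 rows of the count table and of the 20153 genes with enough counts to be tested. The members were chosen by name from among homeostatic genes, with the mutant against control contrast of these same libraries already known, so their own fold changes are given as a description with no test. Most of the 9 products match that label, but Golm1 encodes a Golgi membrane protein and Crybb1 a crystallin, a class of structural protein best known from the lens.

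Among other questions, the study asked whether changes in microglia trace to canonical or non-canonical TGFβ signaling, and compared Smad2/3 mutants with other mutants of the pathway. In canonical signaling the activated receptor passes its signal to the nucleus through SMAD2 and SMAD3. Microglia were sorted from the brains of mice at postnatal day 60 and profiled by bulk RNA sequencing, with 4 control libraries, which the labels call WT, and 4 mutant libraries, which they call SmadKO. The methods describe Smad2/3 fl/fl;Cx3cr1 Cre mutants, in which Cre is made in microglia and also in related macrophages. That these libraries come from that experiment was inferred from genotype and cell type. By the methods, cells came from a Percoll gradient followed by flow cytometry, in which tdTomato-positive cells were examined for CD45 and CD11b. The labels say no more of the controls than WT, but the methods state for the study at large that controls usually were fl/+;Cre, that none was truly wild type, and that each replicate was a different mouse.

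Microglia are the resident macrophages of the brain, and in the healthy adult they hold a characteristic set of surface and secreted proteins that other macrophages make little of. TGFβ is known to be needed for much of that set. TMEM119 is a widely used microglial surface marker, cystatin C and SPARC are secreted in quantity by resting microglia, and several of the other genes are used as markers mainly in expression data.

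The libraries held between 37649124 and 40932680 counts in controls and between 35639502 and 41946479 in mutants. Smad3 was measured at 39.4 to 56.8 CPM (counts relative to the TMM-scaled library size) in controls and at 9.60 to 35.1 in mutants, with a log2 fold change of -1.33 ± 0.36 (SE) and an adjusted p of 0.0429 by edgeR's quasi-likelihood test. That call was lost in 7 of the 8 fits that left out 1 library, those without any of the 4 controls or without mutant replicate 1, 2 or 4, with adjusted p up to 0.11. Smad2 overlapped between the groups, at 62.6 to 92.3 CPM in controls and 42.6 to 75.8 in mutants, with a log2 fold change of -0.34 ± 0.22 and an adjusted p of 0.34. Whether these rows count the deleted exons was not tested. Xist lay between 99.3 and 183 CPM in all 4 controls and between 0.0276 and 0.561 in all 4 mutants, so genotype and sex cannot be told apart in any difference given here. All 9 genes lie on autosomes.

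Sequence just upstream of the start was found in RefSeq for 6 of the 9 genes, as 8 windows of 250 bases on GRCm38.p6, of which 3 belong to Slco2b1. Tmem119, Selplg and Ecscr are named only. The 4 windows below are those of Crybb1 and Golm1, which lost a large share of their RNA, and of Sparc and Cst3, which were among the most abundant. They are written 5′ to 3′ on the gene's strand, and capitals mark CAGAC, the letters of a SMAD box, or GAGGAA, a PU.1 core with its flank, read on either strand. Crybb1 is at chr5:112255570-112255819 on the plus strand. Golm1 is at chr13:59675785-59676034, Sparc at chr11:55420081-55420330 and Cst3 at chr2:148875513-148875762, all on the minus strand. The windows follow RefSeq starts, which differ from the gene spans given below. That of Sparc lies wholly inside its span, and those of Cst3, Golm1 and Crybb1 lie inside theirs in part.
Crybb1: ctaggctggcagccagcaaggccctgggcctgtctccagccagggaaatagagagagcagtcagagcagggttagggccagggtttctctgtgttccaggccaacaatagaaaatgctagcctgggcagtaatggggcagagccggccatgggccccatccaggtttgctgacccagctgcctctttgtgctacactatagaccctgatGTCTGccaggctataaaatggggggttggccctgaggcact
Golm1: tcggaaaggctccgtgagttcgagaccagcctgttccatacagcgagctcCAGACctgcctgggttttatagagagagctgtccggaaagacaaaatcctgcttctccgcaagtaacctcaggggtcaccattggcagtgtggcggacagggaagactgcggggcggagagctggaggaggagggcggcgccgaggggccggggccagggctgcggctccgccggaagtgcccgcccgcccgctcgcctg
Sparc: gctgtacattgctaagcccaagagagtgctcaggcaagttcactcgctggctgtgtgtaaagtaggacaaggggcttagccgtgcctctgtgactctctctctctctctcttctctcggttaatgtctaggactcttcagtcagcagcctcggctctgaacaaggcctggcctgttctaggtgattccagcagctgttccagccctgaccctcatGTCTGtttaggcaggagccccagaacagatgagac
Cst3: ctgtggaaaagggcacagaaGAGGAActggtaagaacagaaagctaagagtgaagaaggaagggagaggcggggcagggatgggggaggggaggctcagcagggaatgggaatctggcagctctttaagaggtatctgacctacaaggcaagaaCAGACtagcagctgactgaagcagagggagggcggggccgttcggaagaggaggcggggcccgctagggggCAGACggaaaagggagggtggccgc

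CAGAC occurred in 6 of the 8 windows, from 5 of the 6 genes, against 42.2% of all 32851 RefSeq promoter windows of the same length. In the printed windows it is found 1 time each for Crybb1, Golm1 and Sparc and 2 times for Cst3. GAGGAA occurred in 2 of the 8 windows, 1 of them that of Cst3, against 23.3% of all windows. TGACTCA, an AP-1 site, occurred in 0 of the 8, against 4.46% of all, and TATAAA in 2 of the 8, those of Crybb1 and Golm1, against 12.4%. Each motif was counted on both strands and on its own. A match is a description of the letters, and no match says only that the letters are not in this window.

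All 9 genes were lower in every mutant library than in any control library. Of all tested genes, 13% showed that order. All 9 also passed an adjusted p of 0.05 in edgeR's quasi-likelihood fit in the lower direction, as did 7.97% of all tested genes, while 4.36% passed in the higher direction. Because this contrast was known when the genes were chosen, nothing is read from these counts. The median log2 fold change of the 9 was -4.14, beside 0.01 over all tested genes, and the gene that changed least, Cst3, stood at rank 377 from the lowest, so that 1.87% of tested genes had a log2 fold change as low or lower. In bulk samples, fewer cells of a type and less RNA per cell cannot be told apart.

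**Figure D1:**
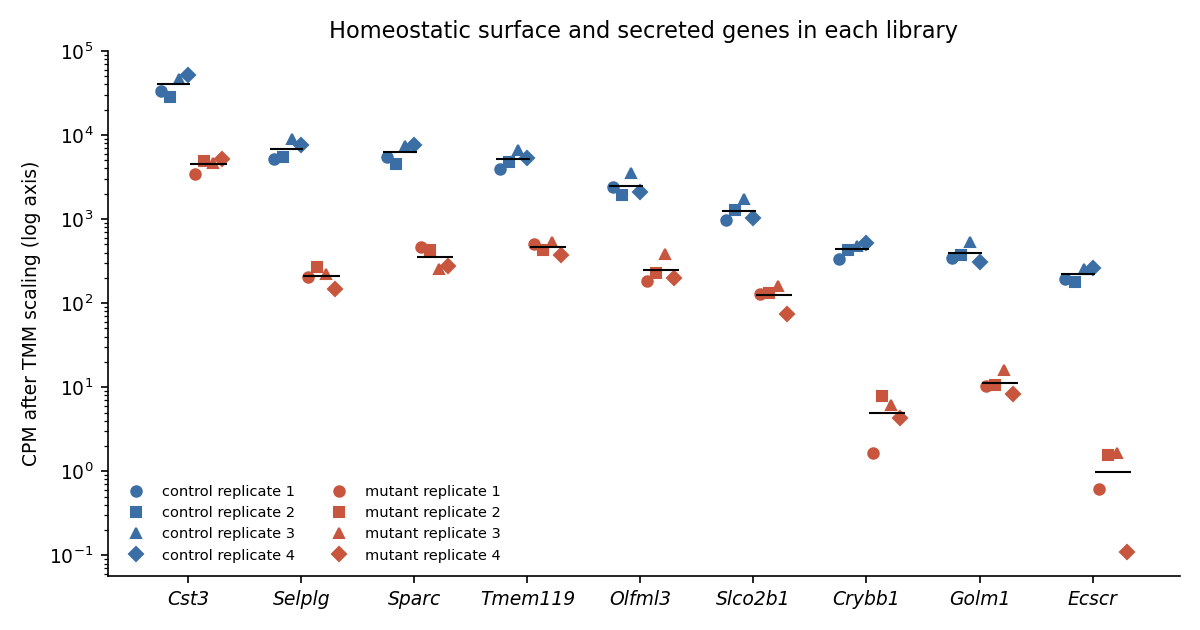
CPM after TMM scaling on a log axis for each of the 9 genes, with one point per library, blue for the 4 controls and red for the 4 mutants, and a line at each group mean. No mutant point reaches a control point of the same gene, and the mutant points of Crybb1 and Ecscr spread most, from 1.63 to 7.79 and from 0.110 to 1.67 CPM.

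The surface proteins come first. Tmem119 (ENSMUSG00000054675, chr5:113793729-113800516, minus strand, GRCm38) encodes a single-pass membrane protein that marks microglia among brain macrophages. It was measured at 3919, 4713, 6599 and 5317 CPM in control replicates 1 to 4 and at 504, 434, 530.3 and 372 CPM in mutant replicates 1 to 4. The groups did not overlap, and the lowest control exceeded the highest mutant 7.39-fold. The mutant mean of 460.2 ± 71.1 CPM (SD, n = 4) was 8.96% of the control mean of 5137 ± 1131, a log2 fold change of -3.48 ± 0.22 (SE). Tmem119 was still readily counted in mutants. Per kilobase of exon it went from rank 25 among tested genes in controls to rank 322 in mutants.

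Selplg (ENSMUSG00000048163, chr5:113818536-113832644, minus strand) encodes PSGL-1, the mucin-like ligand through which leukocytes roll on selectins. Control replicates 1 to 4 held 5229.7, 5486, 8872 and 7503 CPM, and mutant replicates 1 to 4 held 206, 271, 222 and 147. Every mutant lay below every control by at least 19.3-fold, and control replicates 3 and 4 were the highest. The group means were 6773 ± 1729.9 and 211 ± 51.1 CPM (SD, n = 4 each), so mutants kept 3.12% of the control level, a log2 fold change of -5.00 ± 0.29.

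Tmem119 and Selplg are the next tested genes to each other on chromosome 5, with 18019 bases between them, and lie on the same strand. Their balance differed between the groups. Within a library, the CPM of Selplg divided by that of Tmem119 was 1.33, 1.16, 1.34 and 1.41 in controls and 0.408, 0.624, 0.418 and 0.395 in mutants. This ratio does not depend on the scaling of the library, and its ranges did not overlap. Selplg thus lost a larger share of its RNA than its neighbour in all 4 mutants, by values that come from the contrast used to choose them.

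Slco2b1 (ENSMUSG00000030737, chr7:99657804-99711340, minus strand) encodes a transporter that takes up organic anions such as steroid conjugates. It stood at 968, 1293, 1709.8 and 1016 CPM in the controls and at 130.1, 132, 162 and 73.6 CPM in the mutants, in replicate order. The groups did not overlap, with the lowest control 5.99-fold above the highest mutant, and mutant replicate 4 was the lowest of all. Mutants kept 9.97% of the control mean (124 ± 36.7 against 1247 ± 340.4 CPM), a log2 fold change of -3.33 ± 0.30. Exons of Slco2b1 overlap the antisense genes Gm15635 by 471 bases and Gm34280 by 78, and reads of unstranded libraries cannot be told apart there. Both antisense genes are far weaker, with control means of 2.19 and 4.25 CPM.

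Ecscr (ENSMUSG00000073599, chr18:35713086-35722356, minus strand) encodes a small membrane protein first described in endothelial cells. The control libraries gave 196, 180.2, 252 and 261 CPM, and the mutant libraries 0.623, 1.55, 1.67 and 0.110 CPM. No other of the 9 genes fell as far, with the lowest control 108-fold above the highest mutant. The mutant mean of 0.989 ± 0.75 CPM was 0.445% of the control mean of 222 ± 40.2, and the log2 fold change was -7.80 ± 0.67. The 4 mutant libraries together held 160 raw counts of Ecscr and the lowest of them 4, so the mutant values carry a large counting error. Its exons overlap 1700066B19Rik on the other strand by 62 bases.

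Golm1 (ENSMUSG00000021556, chr13:59634626-59675811, minus strand) encodes GP73, a membrane protein of the Golgi that can be cut by a convertase and released. It was at 347, 375, 529 and 312 CPM in controls and at 10.2, 10.7, 15.9 and 8.38 CPM in mutants. The lowest control was 19.6-fold above the highest mutant, and replicate 3 was the highest in both groups. Mutants kept 2.90% of the control mean (11.3 ± 3.24 against 390.4 ± 95.6 CPM), a log2 fold change of -5.11 ± 0.28. Golm1 shares 1297 exonic bases with Naa35 on the opposite strand, and 28.0% of its 50-base words occur in Naa35 too. Naa35, a subunit of an amino-terminal acetyltransferase, fell as well, with a log2 fold change of -1.79 ± 0.19 (adjusted p 0.000526, edgeR's quasi-likelihood test), and which reads of the shared stretch belong to which gene was not tested.

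Among the secreted products, Cst3 (ENSMUSG00000027447, chr2:148871722-148875692, minus strand) encodes cystatin C, an inhibitor of cysteine proteases. Its control values were 33431, 28408, 46072 and 52215 CPM, and its mutant values 3416, 4934, 4613 and 5165 CPM. It was the most abundant tested gene per kilobase of exon in controls, at 31620 CPM per kilobase, and still ranked 16 in mutants. In controls Cst3 alone took 2.85% to 5.16% of all counts of a library, and in mutants 0.362% to 0.545%. The lowest control was 5.50-fold above the highest mutant, and the means of 40031.5 ± 11009 and 4532 ± 778 CPM gave a log2 fold change of -3.14 ± 0.26, the smallest of the 9.

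Sparc (ENSMUSG00000018593, chr11:55394500-55423183, minus strand) encodes a matricellular glycoprotein that binds collagen. Controls held 5543, 4481, 7409 and 7676 CPM and mutants 463, 433, 252 and 277 CPM. The groups did not overlap, by a factor of 9.68 between the nearest libraries. Mutant replicate 1 was the highest mutant for Sparc but the lowest for Cst3. The means were 6277.5 ± 1528 and 356 ± 107 CPM, so 5.67% was kept, with a log2 fold change of -4.14 ± 0.30.

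Both secreted proteins kept a nearly fixed proportion in controls and not in mutants. The CPM of Sparc divided by that of Cst3 was 0.166, 0.158, 0.161 and 0.147 in control replicates 1 to 4. In the mutants it was 0.136, 0.0877, 0.0546 and 0.0537, below every control and spread more widely.

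Olfml3 (ENSMUSG00000027848, chr3:103722222-103738001, minus strand) encodes a secreted glycoprotein with an olfactomedin domain. The controls were at 2412, 1944, 3549 and 2073 CPM and the mutants at 184, 227, 389 and 199.7 CPM. Replicate 3 stood out as the highest in each group, and the groups did not overlap, with 5.0-fold between the lowest control and the highest mutant. Mutants kept 10.03% of the control mean (250.1 ± 94.3 against 2494 ± 730.3 CPM), a log2 fold change of -3.32 ± 0.32.

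Crybb1 (ENSMUSG00000029343, chr5:112255815-112269585, plus strand) encodes βB1-crystallin. It was at 338, 428, 484 and 519 CPM in controls and at 1.63, 7.79, 6.12 and 4.36 CPM in mutants. Mutant replicate 1 was the lowest and replicate 2 the highest, and the lowest control was still 43.5-fold above that highest mutant. The mutant mean of 4.98 ± 2.63 CPM was 1.12% of the control mean of 443 ± 78.9, a log2 fold change of -6.47 ± 0.49. Per kilobase of exon Crybb1 ranked 117 among tested genes in controls, at 449 CPM per kilobase, and 7778 in mutants.

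**Figure D2:**
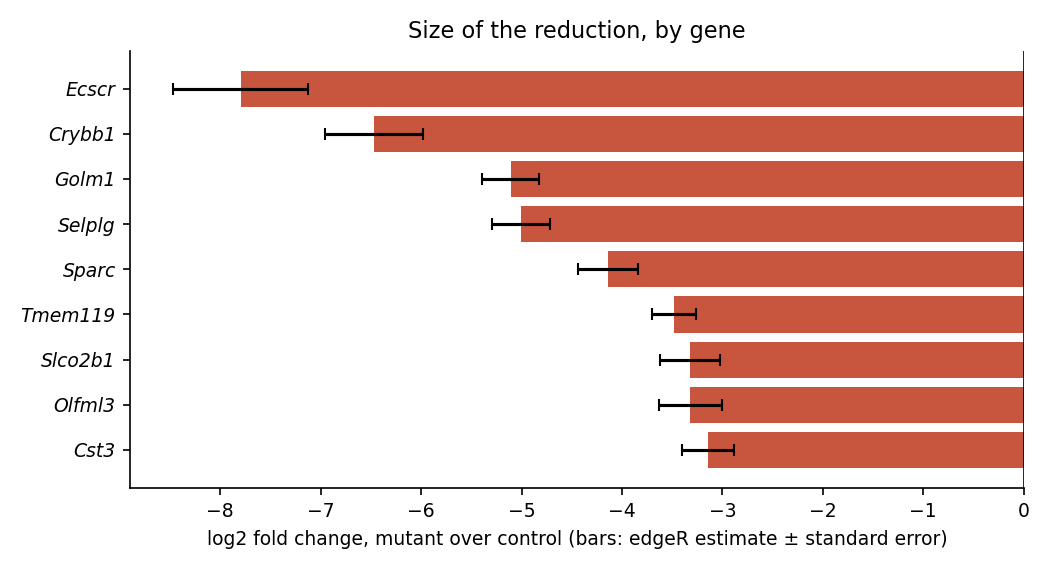
Log2 fold change of mutants over controls for each of the 9 genes, as bars with the standard error of the edgeR fit. The bars run from -7.80 for Ecscr to -3.14 for Cst3, and those of Tmem119, Slco2b1, Olfml3 and Cst3 are close in length.

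By size of the reduction the order was Ecscr, Crybb1, Golm1, Selplg, Sparc, Tmem119, Slco2b1, Olfml3 and Cst3. Neighbours in this order often differed by less than their standard errors. Golm1 and Selplg were at -5.11 ± 0.28 and -5.00 ± 0.29 on the log2 scale, and the last 4 genes lay between -3.48 and -3.14 with standard errors of 0.22 to 0.32. The order did not follow abundance per length, since Ecscr and Golm1, with control levels of 126.9 and 88.3 CPM per kilobase, lost more than Cst3, but Selplg at 1585 CPM per kilobase lost more than Slco2b1 at 209.

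Together the 9 genes took 6.02% ± 1.33 (SD, n = 4) of all counts in controls, between 4.74% and 7.60%, and 0.621% ± 0.0790 in mutants, between 0.521% and 0.713%. Among the controls, replicate 3 was the highest library for 5 of the genes and replicate 4 for the other 4, while replicates 1 and 2 were the lowest for 4 each. Among the mutants, replicate 3 was the highest for 5 genes and replicate 4 the lowest for 5. The coefficient of variation between libraries had a median over the 9 genes of 24.5% in controls and 29.6% in mutants. Over the 10762 tested genes above 3 log2 CPM the medians were 21.5% and 23.5%. The variation was larger in mutants for 6 of the 9 genes, most of all for Ecscr, at 75.9% against 18.1%, and Crybb1, at 52.9% against 17.8%.

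The 9 genes followed one another over the 8 libraries, which fall into 2 groups. The correlation of each gene's log2 CPM with the mean of the other members ran from 0.981 for Sparc to 0.998 for Selplg, and all of these points share the difference between the groups. The tested genes most like the mean profile of the 9 were 1700017B05Rik (r = 0.999), Lpcat3, which remodels membrane phospholipids (0.998), Adgrg1, an adhesion receptor (0.998), Clstn1, a cadherin-like membrane protein (0.998), and P2ry12, the microglial ADP receptor (0.997). They went down by different amounts, with log2 fold changes of -2.84 ± 0.19, -1.93 ± 0.15, -6.21 ± 0.26, -1.36 ± 0.12 and -4.84 ± 0.21.

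The other homeostatic genes on a list of receptors, transcription factors and enzymes moved the same way. All 16 were tested and 16 fell, beside 7.97% of all tested genes, with a median log2 fold change of -2.82. This list too was chosen with the contrast known, so it is no independent evidence of direction. The largest falls were those of Siglech, a sialic acid-binding lectin, at -6.64 ± 0.69 (adjusted p 0.000446, edgeR's quasi-likelihood test), Adgrg1 at -6.21, Sall1, a transcription factor of microglial identity, at -6.11 ± 0.77 (0.00118), and P2ry12 at -4.84. Csf1r, the receptor for the growth factors on which microglia depend, fell by only 1.32 (0.00998), less than any of the 9 genes.

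Relatives and partners of the 9 genes were then counted from lists of families. Of 100 such genes in the table, 66 were tested, and 15 fell, 5 rose and 46 did not pass the test, beside 7.97% of all tested genes that fell and 4.36% that rose. These lists were also chosen with earlier results of these data known, and they hold enzymes and partners besides relatives. Nothing is read from their counts against those shares. Most close relatives of the 9 genes were weakly measured or did not pass the test.

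Among the crystallins, 4 of 16 were tested, and Cryba4 fell, from 28.6 to 59.9 CPM in controls to 2.44 to 9.24 in mutants, with a log2 fold change of -3.15 ± 0.50 (adjusted p 0.00409, edgeR). Cryba4 encodes βA4-crystallin and lies next to Crybb1 with 3296 bases between. Crybb1 fell further than it did: the CPM of Crybb1 over that of Cryba4 was 8.19 to 11.8 in controls and 0.610 to 3.19 in mutants. Crybg3 was at 4.75 to 7.91 CPM in controls and 3.54 to 10.5 in mutants, with no call (adjusted p 0.815).

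The cystatins other than Cst3 were scarce, with 4 tested of 14 in the table. Cstb, an intracellular cystatin, rose from 65.5 to 100.2 CPM in controls to 124 to 188 in mutants, with a log2 fold change of 0.90 ± 0.20 (adjusted p 0.0181, edgeR). The call was lost without control replicate 2 or 3, with adjusted p up to 0.0597. Cst7, cystatin F, was at 4.39 to 11.1 CPM in controls and 0 to 5.15 in mutants and did not pass (0.369).

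Of the 11 cysteine proteases that cystatins inhibit, all tested, 5 fell and 1 rose. Lgmn, the asparaginyl endopeptidase legumain, changed by -1.81 ± 0.21 (adjusted p 0.000759), Ctsl by -1.47 ± 0.19 (0.00141) and Ctss, the main cathepsin of antigen-presenting cells, by -1.09 ± 0.21 (0.0105), each on the log2 scale by edgeR. Ctsc, cathepsin C, rose by 1.12 ± 0.18 (0.00422). Ctsb was at 2826 to 4282 CPM in controls and 4526 to 5451 in mutants with no call (0.0874). The inhibitor Cst3, at 11.3% of its control level, lost a larger share than any of these proteases.

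Of the 6 tested relatives of Sparc, 0 passed an adjusted p of 0.05 by edgeR, 0 by DESeq2, and 0 reached an unadjusted p of 0.05. Sparcl1, the relative most abundant here, was at 47.0 to 396 CPM in controls and 46.1 to 274 in mutants (log2 fold change -0.41 ± 0.73, adjusted p 0.77). Spock2 was at 1.71 to 7.75 and 4.16 to 8.93 CPM (0.318). Of 7 tested partners that bind SPARC, 1 rose: Stab1, a scavenger receptor that takes SPARC up, went from between 139 and 217 CPM to between 389 and 513, a log2 fold change of 1.43 ± 0.18 (adjusted p 0.00119, edgeR). Col1a2, a chain of type I collagen, was at 7.85 to 18.7 CPM in controls and 9.37 to 15.0 in mutants (0.609).

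In the olfactomedin family 7 relatives of Olfml3 were tested and 2 fell. Olfml2b was at 16.3 to 70.1 CPM in controls and 0.0519 to 4.49 in mutants, a log2 fold change of -4.14 ± 0.91 (adjusted p 0.0184, edgeR), and lost the call without mutant replicate 2 (0.0562). Olfm4 was at 2.63 to 6.06 CPM in controls and had no count in any mutant, which makes it at least 199-fold lower against a floor of 3 counts over the mutant group. Olfm1, better known from neurons, was at 37.9 to 316 and 71.8 to 194 CPM (0.957).

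Of the Slco family, 5 relatives of Slco2b1 were tested and 1 fell. Slco4a1, a transporter of thyroid hormone and prostaglandins, went from 103 to 175 CPM in controls to 0.0827 to 4.70 in mutants, a log2 fold change of -5.77 ± 0.82 (adjusted p 0.00227, edgeR), further than Slco2b1 itself at -3.33. Slco1c1, a thyroid hormone transporter of brain capillaries and choroid plexus, was at 47.6 to 154 and 116 to 189 CPM (0.391).

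PSGL-1 binds selectins only after its glycans and tyrosines are modified. Of 12 tested genes for selectins and these enzymes, 4 fell and 2 rose. Gcnt1, which starts the branched core of its glycans, changed by -1.87 ± 0.23 (adjusted p 0.00109), the sialyltransferase St3gal6 by -1.52 ± 0.17 (0.000716) and the tyrosylprotein sulfotransferase Tpst2 by -1.32 ± 0.21 (0.00441), on the log2 scale by edgeR. St3gal4, another sialyltransferase, rose by 1.59 ± 0.26 (0.00458). All 4 changes were smaller than the -5.00 of Selplg.

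Among 10 tested Golgi proteins and proprotein convertases, chosen as company for Golm1, 2 fell and 0 rose, with 0 higher also by DESeq2 and at an unadjusted p of 0.05. Furin, a convertase that cuts GP73, changed by -1.05 ± 0.23 (adjusted p 0.0185, edgeR), a call lost without control replicate 2 or 3 or mutant replicate 2 or 4 (up to 0.059). Gorasp2, a Golgi stacking protein, changed by -0.63 ± 0.15 (0.0227), a call lost in 6 of 8 such fits, all but those without control replicate 4 or mutant replicate 1 (up to 0.0686). Golph3 stayed at 68.6 to 104 CPM in controls and 69.9 to 94.2 in mutants (0.966).

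**Figure D3:**
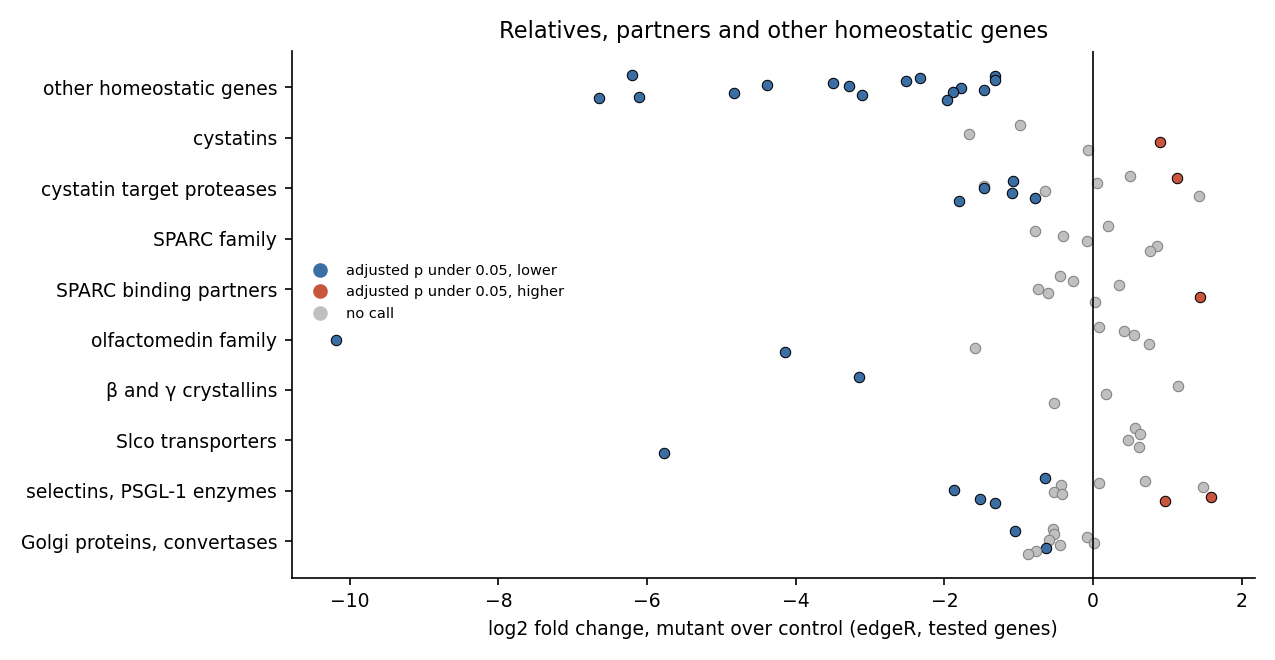
Log2 fold change of mutants over controls for each tested gene of the lists of relatives and partners and of the other homeostatic genes, blue where lower and red where higher at an adjusted p under 0.05, grey without a call. All 16 other homeostatic genes are blue, while 46 of the 66 tested relatives and partners are grey. The fitted value of Olfm4, farthest left, depends on the prior count because it had no counts in mutants.

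The genome around the 9 genes was examined next, as the 5 nearest tested genes on each side, 80 genes in all besides the 9 themselves. Nearest is meant by order, and some of these genes lie far off. Among those called below, Mfap3 is 2095481 bases from Sparc, Ttc28 966035 from Crybb1 and Gm47942 965787 from Golm1. Of these 16 fell, which is 20.0%, and 4 rose, which is 5.0%, with a median log2 fold change of -0.22. The shares over all tested genes were 7.97% and 4.36%. DESeq2 called 23 of the neighbours lower and 6 higher.

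Around Crybb1, 6 of 10 neighbours fell. They were Cryba4 (-3.15, above), the sulfotransferase gene Tpst2 with 7105 bases between (-1.32), Hps4, which works in the making of lysosome-related organelles (-2.74 ± 0.22, adjusted p 0.000114), Gm6583 (-5.03 ± 0.98, 0.0109), Ttc28 (-1.32 ± 0.23, 0.00689) and Tfip11, a splicing factor (-1.01 ± 0.27, 0.0415), all by edgeR. The call of Tfip11 was lost in 7 of the 8 fits that left out 1 library, all but that without mutant replicate 1, with adjusted p up to 0.111. Gm6583, at a control mean of 3.01 CPM against 274 for Hps4, lies inside the span of Hps4. Whether its reads come from Hps4 was not tested, so the 6 may count the same change more than once. Crybb1 and Tmem119 are on the same chromosome but 1524143 bases apart.

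Around each of Tmem119 and Selplg, 0 of the 9 other neighbours fell by edgeR or by DESeq2. At an unadjusted p of 0.05, 1 was lower. The processed pseudogene Gm3511 rose by 1.38 ± 0.30 (adjusted p 0.0179, edgeR), a call lost without control replicate 2 or 3 (up to 0.059). Around Ecscr, 3 of 10 fell. The nearest gene on one side is Tmem173, which encodes the innate immune adaptor STING, at -2.95 ± 0.21 (7.84e-05). Farther out on that side, beyond a gene without a call, Cxxc5, a zinc finger protein, was at -2.05 ± 0.17 (0.000119). Dnajc18 at -0.83 ± 0.22 (0.0386) lost its call without any one of the 8 libraries (up to 0.0901).

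Around Slco2b1, 3 of 10 fell, including its antisense genes Gm15635 at -5.20 ± 1.15 (adjusted p 0.0188) and Gm34280 at -3.90 ± 0.67 (0.00563), whose exons overlap it. The call of Gm15635 was lost without control replicate 2 or 3 or mutant replicate 2 (up to 0.0615). The other was Tpbgl, a leucine-rich repeat membrane protein, at -3.51 ± 0.24 (6.55e-05, edgeR), which shares no exon with Slco2b1. Around Golm1, Naa35 and the processed pseudogene Gm47942 fell (-1.79 above, and -1.19 ± 0.19, adjusted p 0.00432). Whether reads of this pseudogene come from another gene was not tested.

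Around Sparc 1 of 10 fell, Mfap3 at -0.97 ± 0.19 (adjusted p 0.00998, edgeR), whereas DESeq2 called 5 lower and 2 higher, as many as reached an unadjusted p of 0.05 in edgeR. Around Olfml3, Syt6 fell by 1.59 (0.0446) and Ptpn22, a phosphatase of leukocytes, rose by 1.60 ± 0.43 (0.0437). Neither call was firm, since Syt6 lost it in 7 of 8 fits without 1 library, all but that without mutant replicate 1 (up to 0.133), and Ptpn22 in 6 of 8, all but those without control replicate 2 or mutant replicate 1 (up to 0.117). Around Cst3, 0 fell, by edgeR, by DESeq2 or at an unadjusted p of 0.05, and 2 rose: Cd93, a lectin-like receptor of endothelial and myeloid cells, from a mean of 1.57 to 58.7 CPM (5.22 ± 0.42, 0.000109), and Gm14120 (6.20 ± 1.20, 0.0103).

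**Figure D4:**
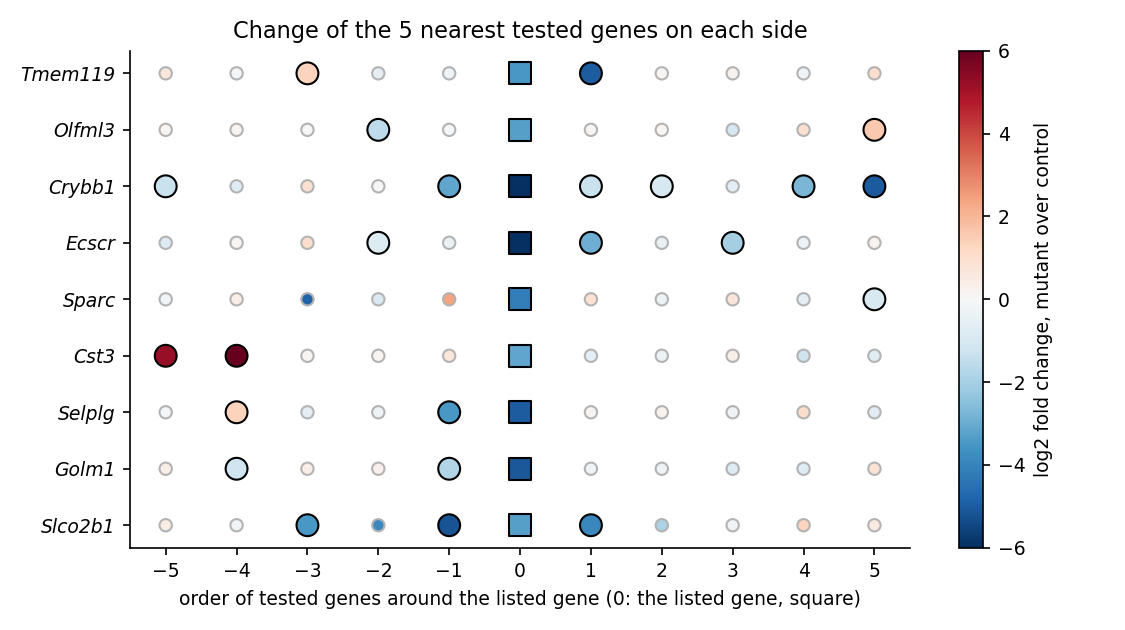
Log2 fold change, as colour, of the 5 nearest tested genes on each side of each of the 9 genes in order along the chromosome, with the gene itself as a square at 0 and large ringed circles for genes with an adjusted p under 0.05. The row of Crybb1 holds 6 blue ringed neighbours, and those of Tmem119 and Selplg hold no blue one but each other.

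Several of the 9 genes are also made by other brain cells: Ecscr and Slco2b1 by endothelial cells, Sparc by endothelial cells and astrocytes, Cst3 by astrocytes and choroid plexus. Of the 12 endothelial markers 0 of 8 tested were called by edgeR, with 1 lower by DESeq2 and at an unadjusted p of 0.05. It was Pecam1, at 5.11 to 13.3 CPM in controls and 0.604 to 5.01 in mutants. The summed level of the 12 was 79.7 to 213 CPM in controls and 170 to 235 in mutants, most of it Slco1c1, at 47.6 to 154 and 116 to 189. The next highest were Ly6c1, at 9.05 to 21.8 CPM in controls and 11.4 to 22.9 in mutants, and Itm2a, at 6.34 to 20.9 and 14.2 to 29.0. Cldn5, Tek, Tie1 and Emcn had too few counts to be tested, and Emcn was at 0 in all controls. Other tested markers were low. Kdr was at 2.96 to 10.2 CPM in controls and 1.81 to 5.98 in mutants, and Flt1 at 0.0559 to 1.63 and 0.432 to 3.81. Cdh5 was at 0.232 to 1.64 and 0.0556 to 1.38, and Esam at 0 to 1.42 and 0 to 2.10. In mutants Ecscr, at 0.110 to 1.67 CPM, was below Slco1c1, Ly6c1, Itm2a and Kdr. It overlapped Pecam1, Flt1, Cdh5 and Esam. Slco1c1 is also made by choroid plexus. The part of endothelial RNA in the level of Ecscr was not tested.

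Astrocyte markers summed to 1491 to 2535 CPM in controls and 425 to 1425 in mutants, and 1 of 9 fell, Slc1a3, a glutamate transporter, at 1083 to 1756 CPM in controls and 25.8 to 170.1 in mutants (-4.10, adjusted p 0.00163, edgeR). The other 8 had no call and summed to 264 to 1452 CPM in controls and 399.7 to 1255 in mutants, which overlapped. Slc1a3 was at 1083 CPM in control replicate 1 and 1756 in control replicate 3. Aldoc, the most abundant of the other 8, was at 929 and 186 CPM there. Which cells the Slc1a3 RNA came from was not tested. The 4 choroid plexus markers summed to 7327 to 25258 CPM in controls and 25705 to 42411 in mutants, higher in every mutant, nearly all of it Ttr, with 0 of 4 called by edgeR, 1 higher by DESeq2 and 2 higher at an unadjusted p of 0.05. Cst3 in mutants was highest in replicates 4 and 2, where the choroid plexus sum was highest too, and lowest in replicate 1, where the sum was lowest. In controls the order differed, since replicate 3 had the lowest sum but the second highest Cst3, and replicate 4 the highest of both. Control replicate 3 was also the highest library for 5 of the 9 genes. The part of choroid plexus RNA in these values was not tested.

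Pericyte markers summed to 16.2 to 30.4 CPM in controls and 8.26 to 17.6 in mutants, with 1 of 4 tested lower. Oligodendrocyte lineage markers summed to 717 to 4513 and 1174 to 3817 CPM and neuronal markers to 37.9 to 319 and 97.9 to 308, with 0 of 8 called in each by edgeR and by DESeq2 and 1 and 0 higher at an unadjusted p of 0.05. Both sums were highest in replicate 1 of either group. Sparc was highest in replicate 1 among mutants, but among controls it was lower in replicate 1 than in replicates 3 and 4, where both sums were lowest. The part of neural RNA in it was not tested. Monocyte and granulocyte markers summed to 552 to 1858 and 303 to 886 CPM, with 0 of 7 called by edgeR and 1 lower by DESeq2 and at an unadjusted p of 0.05.

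The general macrophage markers were kept in part. Of 8 markers of microglia and macrophages 5 fell, with a sum of 23864 to 36124 CPM in controls and 8707 to 11634 in mutants. C1qa, Ptprc and Aif1 had no call, with C1qa at 2643 to 4499 and 2659 to 4060 CPM. Markers of border-associated macrophages summed to 52.8 to 99.0 CPM in controls and 1630 to 2534 in mutants, and 5 of 7 rose, with Ms4a7, Pf4 and Mrc1 among them. The other 2 had no call and overlapped between the groups. Lyve1 was at 0.336 to 1.80 CPM in controls and 1.34 to 6.68 in mutants, and F13a1 at 16.0 to 56.5 and 31.3 to 52.2. The paper reports such markers in isolated microglia of another mutant of the pathway, Itgb8 fl/fl;Emx1 Cre. Cx3cr1 Cre is active in border-associated macrophages too. Neither their share of the sorted cells nor the level of these markers in microglia alone was tested.

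**Figure D5:**
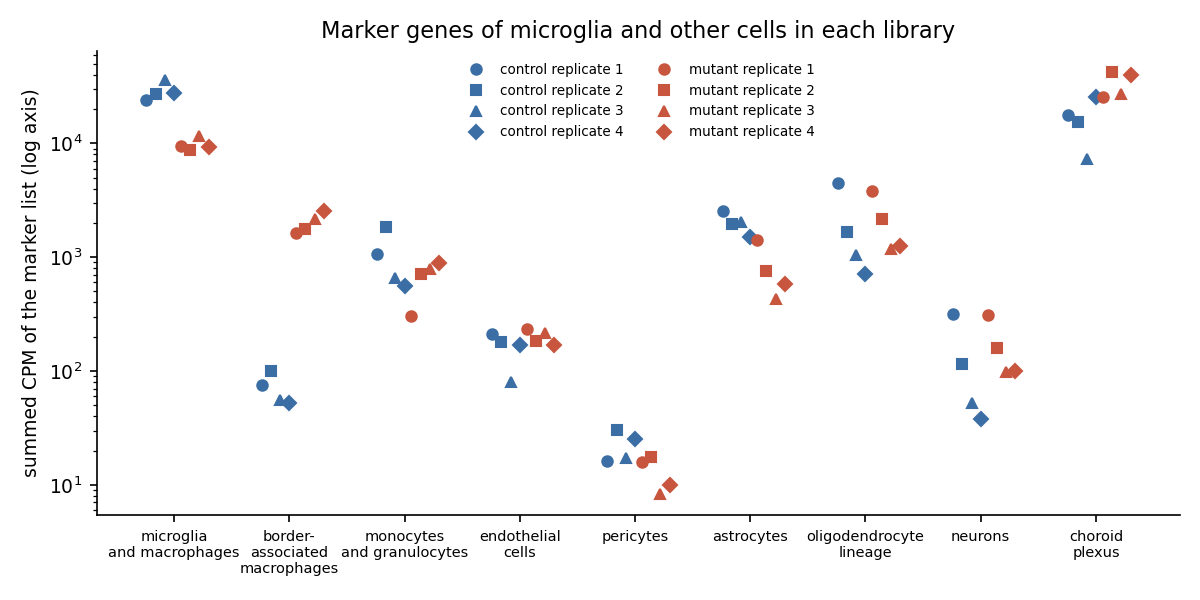
Summed CPM of each marker list on a log axis, with one point per library, blue for the 4 controls and red for the 4 mutants. The sums for border-associated macrophages and choroid plexus are higher in all mutants and those for microglia and astrocytes lower, the last through Slc1a3. The endothelial sum, most of it Slco1c1, ranges from 79.7 to 235 CPM over the 8 libraries.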

How the data were processed

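Counts of sorted microglia from 4 control and 4 mutant samples were analysed, grouped by the labels. The authors deposited raw counts per gene, not normalized, which their methods describe as Rsubread alignments to mm10 summarised by featureCounts. The annotation, the strand setting and the versions of these 2 tools are not given in the sources used here. The submitters' processing notes name DESeq2 1.28. The labels describe Nextera XT single-end unstranded libraries and the methods polyA paired-end ones, and the methods name another deposit for these mutants. A deposited table of the authors' own comparison (fold changes, standard errors and p-values) was not used.

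A gene was tested if 4 or more libraries held 10 or more counts of it, with edgeR 4.0.16 (TMM, glmQLFit and glmQLFTest) in R 4.3.3, checked on simulated counts, and p-values were adjusted over all tested genes by Benjamini and Hochberg's method. The SE is the log2 fold change divided by the root of the F statistic. CPM used TMM library sizes. Levels per kilobase used the summed exon length of GENCODE M21 on GRCm38, and log2 CPM for correlations a prior count of 2. Tables were made with Python 3.11.15.

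The members and lists were chosen with earlier results of these data known. Text could name the 9 members, Smad2, Smad3, in each list at most 4 called genes of at least 1 CPM by size of change and the 2 most abundant, every called neighbour, and the 5 genes most like the members. A gene that this rule names is not reported here singly. Markers named beyond that were picked after their values were seen. DESeq2 1.42.0, RLE and library-total scaling, other count filters, a block and leaving out each library were alternatives. The floor of 3 counts covers counting error only. Replicates of a group differed by more than sampling noise in every pair.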

Additional observations from a re-analysis of the deposited data

How the results depend on the processing

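All 9 genes stayed lower at an adjusted p under 0.05 with DESeq2, RLE size factors, library totals, no filter on low counts and each library left out. A filter of 10 counts in all 8 libraries removed Ecscr and left 8. Their log2 fold changes kept their sign in all of these, and their median ran from -4.29 to -3.98 over the fits without 1 library. Library totals in place of TMM moved the median of all genes by 0.119 on the log2 scale. For Smad3 the log2 fold change was -1.35 without the filter, no longer past the threshold, and -1.79 to -1.11 without 1 library. Without control replicate 3, 3 relatives and partners and 2 neighbours rose, and over the fits without 1 library these counts ran from 3 to 5 and from 2 to 5. Of the markers outside the 2 lists of microglia and border-associated macrophages, 2 fell and 0 rose in edgeR, against 4 and 2 in DESeq2. Of the 2 that rose there, 1, Kcnj8, was below the count filter of edgeR. Border-associated macrophage markers, left out of these counts, rose for 5 of 7 in edgeR and for 6 in DESeq2. The causes were not tested.

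Same-numbered libraries correlated in their deviations from the group means at 0.0183 to 0.166, not above 0.1 in every pair, and 3 of 4 mutants and 3 of 4 controls correlated best with their own number. No source says that a number marks a shared litter or batch, so this is a hint from the data, and the libraries were not treated as pairs. With the replicate block 9 members fell, with a median of -4.16, Smad3 was at -1.48, 14 relatives and partners fell and 5 rose, 15 neighbours fell and 4 rose, and 16 other homeostatic genes fell. Furin, Dnajc18, Syt6 and Ptpn22 lost their calls with it (adjusted p 0.0546 to 0.0857, edgeR). Dnajc18, Syt6 and Ptpn22 also lost theirs without the filter on low counts, and Dnajc18, Syt6, Tfip11 and Gorasp2 with library totals. Of the values of single genes under all alternatives, 760 kept their direction and side of the threshold, 57 lost a call, 3 gained one and 0 turned. Depth limits Ecscr most, with 160 counts over the 4 mutants. No library of either group stood apart by Dixon's criterion in the CPM of the 9 genes.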
